A study of Mus musculus with 9 samples.

Results

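The genes described here are 10 immediate early genes of the mouse lung: Fos, Fosb, Egr1, Jun, Junb, Klf4, Ier2, Atf3, Dusp1 and Nr4a1. They were chosen by gene symbol, on values of these same arrays on which they had been seen to vary together, so their levels and differences are given as descriptions. The symbols picked out 12 probe sets, 2 each for Jun and Klf4 and 1 for each other gene, of the 22690 on the array. All 12 probe sets passed the filter on low signal, among 13576 that were tested. For Jun and Klf4 the probe set of higher mean signal stands for the gene unless the other is named.

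Lung total RNA from FVB/N mice was hybridised to Affymetrix mouse expression arrays, which give 1 signal per probe set in arbitrary units. HO lungs carried 2 alleles and HE lungs 1 allele of SP-C-hCFTR, a transgene that makes the normal human CFTR chloride channel from a cDNA behind the Sftpc promoter, which is active in respiratory epithelial cells. WT lungs carried no transgene, and the mouse Cftr genes were labelled intact in HO, HE and WT lungs, except that the third WT array has no genotype label. The mice were adults of unstated age, with 3 arrays per group and no statement that each array came from a separate animal, so the p-values measure only the spread between these samples, which may be technical. HO replicate 2 is titled homozygous and has 2 alleles in its genotype field, but its description writes the genotype with 1 allele. It was kept as HO.

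Immediate early genes are switched on within minutes of a stimulus, from transcription factors such as CREB and SRF that are already in the cell, and their mRNAs are short-lived. Fos and Jun family proteins pair to form the AP-1 transcription factor, and Egr1, Klf4, Atf3 and Nr4a1 encode other transcription factors. In tissues these genes are known to respond to growth factors, stretch, inflammation and the handling of the tissue itself.

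Promoters are shown for Fos, the member with the widest fold range over the arrays, for Fosb, the member with the largest HO minus WT difference, and for Dusp1 and Nr4a1, which hold the most copies of the CREB core motif TGACG. Each is the 250 bases before the RefSeq start, 5′ to 3′ on the gene's strand, in build GRCm38.p6. The capitals mark TGACG or its reverse complement CGTCA. Fos lies on the plus strand at chr12:85473640-85473889.
Fos: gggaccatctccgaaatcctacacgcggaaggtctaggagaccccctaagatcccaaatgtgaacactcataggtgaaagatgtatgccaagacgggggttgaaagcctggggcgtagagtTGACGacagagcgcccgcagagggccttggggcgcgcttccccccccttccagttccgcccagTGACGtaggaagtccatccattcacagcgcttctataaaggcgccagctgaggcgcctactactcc
Fosb lies on the minus strand at chr7:19310046-19310295.
Fosb: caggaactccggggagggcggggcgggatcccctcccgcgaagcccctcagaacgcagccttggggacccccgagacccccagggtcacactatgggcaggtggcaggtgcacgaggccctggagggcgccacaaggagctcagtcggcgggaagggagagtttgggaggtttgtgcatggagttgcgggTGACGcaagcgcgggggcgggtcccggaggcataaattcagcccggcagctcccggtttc
Dusp1 lies on the minus strand at chr17:26508473-26508722.
Dusp1: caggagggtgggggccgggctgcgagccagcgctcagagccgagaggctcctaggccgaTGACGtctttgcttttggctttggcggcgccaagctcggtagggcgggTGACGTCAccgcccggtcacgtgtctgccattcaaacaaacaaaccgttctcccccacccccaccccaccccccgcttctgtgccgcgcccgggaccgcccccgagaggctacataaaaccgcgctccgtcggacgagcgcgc
Nr4a1 lies on the plus strand at chr15:101266596-101266845.
Nr4a1: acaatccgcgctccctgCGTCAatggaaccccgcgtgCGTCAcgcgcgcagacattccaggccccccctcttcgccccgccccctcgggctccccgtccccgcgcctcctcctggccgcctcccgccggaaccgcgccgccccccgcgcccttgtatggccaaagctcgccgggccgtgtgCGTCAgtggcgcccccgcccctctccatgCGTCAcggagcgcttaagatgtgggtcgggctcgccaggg

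Of the 10 genes, 8 were matched by symbol to the RefSeq promoter table, all but Egr1 and Ier2. TGACG, searched on both strands, was found in 7 of these 8 promoters, all but that of Jun, against 17.8% of all 32851 promoters in the table and 20.2% of the 21263 of protein-coding genes. In Fos it began 129 and 66 bases before the start, and in Fosb 60 bases before it. In Dusp1 2 of its 3 copies overlap as the full palindrome TGACGTCA, 143 bases before the start, a motif found in 1.55% of all promoters. Nr4a1 held 4 copies, 233, 213, 69 and 40 bases before its start. The EGR1 motif GCGNGGGCG was found in Fosb, Klf4 and Nr4a1, against 4.7% of all promoters, and TATAAA in Fos, against 12.4%. The ETS motif CCGGAA was found in Nr4a1, against 12% of all promoters. The AP-1 motif TGANTCA and the CArG box, to which SRF binds, were found in 0 of the 8, against 6.75% and 1.47% of all promoters, which says only that these letters are not in these 250 bases.

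Most of the 10 genes were high and low on the same arrays, and arrays of one group differed widely. In lung RNA, fewer cells of a type and less RNA per cell cannot be told apart. WT replicate 3 gave the highest signal of the 9 arrays for 8 of the 10 genes, all but Klf4 and Dusp1, whereas 11.3% of all tested probe sets were highest there. HE replicate 1 gave the lowest signal for 5 genes and HO replicate 2 for 4, against 7.98% and 13.6% of all tested probe sets. As the genes were chosen for varying together on these arrays, nothing is read from these counts. With each gene centred on its own mean over the 9 arrays, the mean of the 10 genes on the log2 scale was 0.10, -0.69 and -0.02 on HO replicates 1 to 3. It was -0.75, 0.53 and 0.16 on HE replicates 1 to 3, and -0.08, -0.12 and 0.89 on WT replicates 1 to 3. The groups overlapped on this mean, with 1 array of each group standing apart from its other two. All 10 genes were above their own mean on WT replicate 3, 8 on HE replicate 2, 1 on HE replicate 1 and 0 on HO replicate 2.

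**Figure D1:**
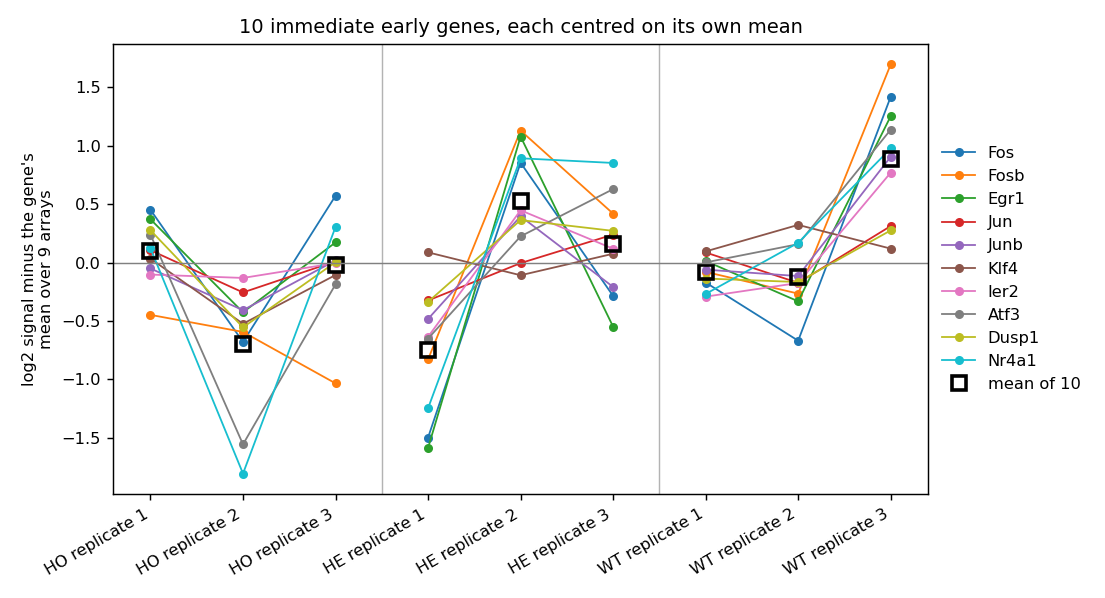
Centred log2 signal (vertical axis: each gene's log2 signal minus its own mean over 9 arrays) of the 10 immediate early genes on the HO, HE and WT arrays, with lines joining the points of one gene only to make it traceable and open squares for the mean of the 10. The mean is highest on WT replicate 3 (0.89) and lowest on HE replicate 1 (-0.75) and HO replicate 2 (-0.69).

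Among the AP-1 genes, Fos, whose protein pairs with Jun proteins, had signals of 13322, 6084 and 14475 on HO arrays, of 3451, 17621 and 7993 on HE arrays, and of 8655, 6130 and 26049 on WT arrays. The highest array, WT replicate 3, and the lowest, HE replicate 1, were 7.55-fold apart, and the 3 groups overlapped. On the log2 scale HO averaged 13.37 ± 0.69, HE 12.94 ± 1.18 and WT 13.44 ± 1.09 (SD, n = 3 each). The difference was -0.08 ± 0.61 (SE) for HO minus WT and -0.50 ± 0.61 for HE minus WT, both within the spread between replicates.

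Fosb, a second Fos family gene, had signals of 394, 356 and 263 on HO arrays, of 303, 1177 and 719 on HE arrays, and of 509, 447 and 1742 on WT arrays. Every HO array lay below every WT array, while the HE arrays spanned both groups. HO minus WT was -1.14 ± 0.53 on the log2 scale (SE, 95% interval -2.30 to 0.02), and HE minus WT was -0.21 ± 0.53. Fosb lay close to the low-signal filter: its mean log2 signal was 9.07 with all 9 arrays and 8.86 without WT replicate 3, against a filter at 8.90. It would therefore not have been tested without that array. Leaving WT replicate 3 out of the fit, with the filter kept, gave -0.52 for HO minus WT.

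Jun, the AP-1 partner of Fos, had signals of 13249, 10316 and 12403 on HO arrays, of 9834, 12273 and 14539 on HE arrays, and of 13079, 10916 and 15292 on WT arrays. The arrays differed by at most 1.56-fold, and the groups overlapped. Jun averaged 13.54 ± 0.19 in HO, 13.56 ± 0.28 in HE and 13.66 ± 0.24 in WT (log2, SD, n = 3 each). Its second probe set also overlapped between groups and gave HO minus WT of -0.15 against -0.12 for the first.

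Junb, another Jun family gene, had signals of 2944, 2298 and 3089 on HO arrays, of 2183, 4014 and 2639 on HE arrays, and of 2923, 2814 and 5711 on WT arrays. Signals of WT replicates 1 and 2 lay inside the HO range, and WT replicate 3 lay above every other array. HO minus WT was -0.39 ± 0.29 and HE minus WT was -0.34 ± 0.29 (log2, SE). Without WT replicate 3 the differences were -0.06 for HO and -0.01 for HE.

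**Figure D2:**
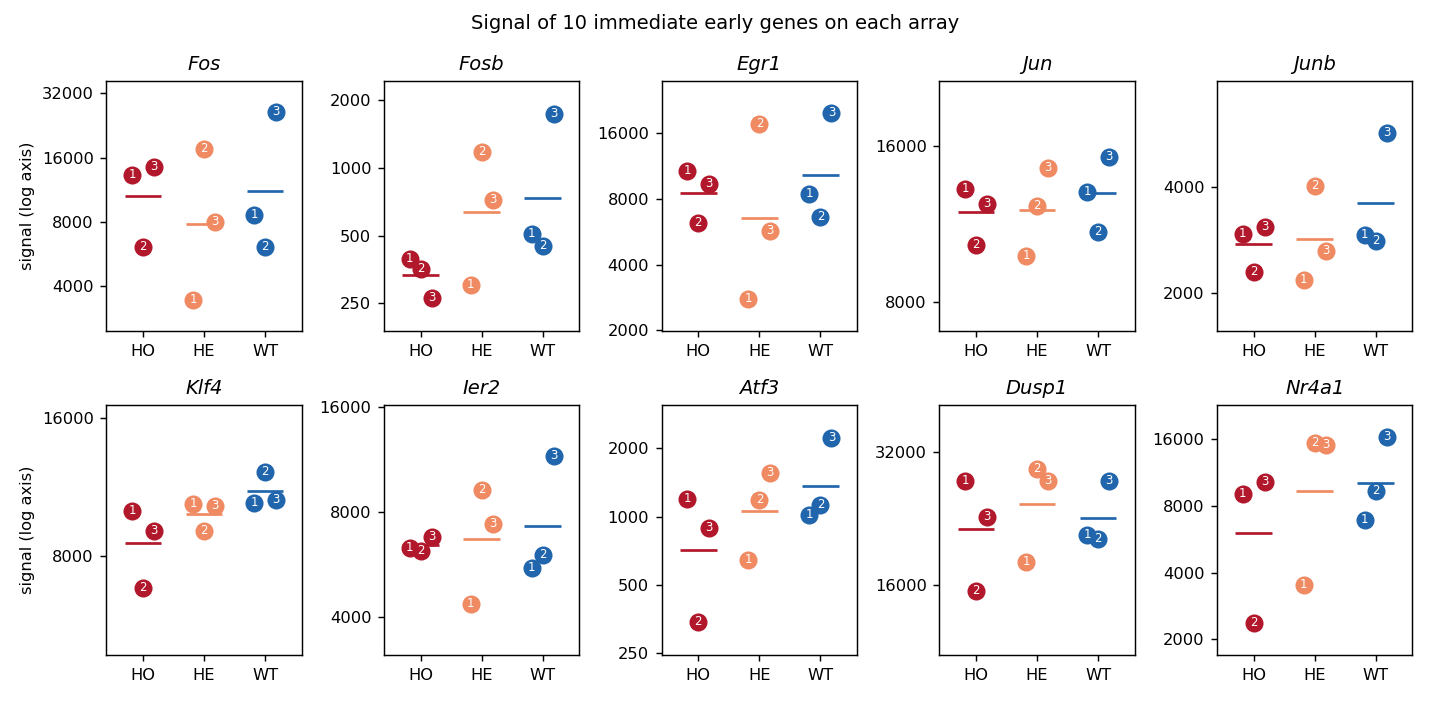
Signal (log axis, arbitrary units, a different range in each panel) of each immediate early gene on the HO, HE and WT arrays, with the replicate number in each point and a line at the mean of the group's log2 values. WT replicate 3 is the highest point for 8 of the 10 genes, and HO and WT do not overlap for Fosb and Klf4.

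The zinc finger factor Egr1 had signals of 10772, 6203 and 9392 on HO arrays, of 2776, 17604 and 5696 on HE arrays, and of 8413, 6625 and 19850 on WT arrays. HE arrays spanned 6.34-fold by themselves, from the lowest array of all to the array next to the highest. Egr1 averaged 13.06 ± 0.42 in HO, 12.67 ± 1.34 in HE and 13.34 ± 0.83 in WT (log2, SD, n = 3 each), differences smaller than the spread within HE. Without WT replicate 3 the HO minus WT difference was 0.20, against -0.27 with all arrays.

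Klf4, a zinc finger factor of epithelial and endothelial cells, had signals of 9991, 6791 and 9067 on HO arrays, of 10366, 9051 and 10281 on HE arrays, and of 10430, 12207 and 10601 on WT arrays. Every HO array and every HE array lay below every WT array, though HE replicate 1 came close to the lowest WT array. HO minus WT was -0.38 ± 0.16 (log2, SE, 95% interval -0.73 to -0.03), and HE minus WT was -0.16 ± 0.16. Without HO replicate 2, the lowest array, HO minus WT was -0.22. At this probe set WT replicate 3 was 0.09 below the mean of WT replicates 1 and 2 on the log2 scale. Its other probe set gave 5271, 2769 and 4034 on HO arrays, 4278, 3792 and 5974 on HE arrays, and 4500, 4298 and 5575 on WT arrays. These groups overlapped, and HO minus WT was -0.29 ± 0.24 there. WT replicate 3 was 0.34 above the mean of WT replicates 1 and 2 at that probe set.

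Atf3, a stress-induced member of the ATF and CREB family, had signals of 1193, 344 and 888 on HO arrays, of 644, 1182 and 1563 on HE arrays, and of 1012, 1128 and 2225 on WT arrays. HO replicate 2 lay 2.58-fold below the next HO array, and HO replicate 1 lay above WT replicates 1 and 2. HO minus WT was -0.93 ± 0.46 (95% interval -1.95 to 0.08) and HE minus WT was -0.37 ± 0.46 (log2, SE). Nr4a1, an orphan nuclear receptor, shared the low HO replicate 2, with signals of 9054, 2381 and 10281 on HO arrays, of 3510, 15454 and 15030 on HE arrays, and of 6910, 9364 and 16379 on WT arrays. Its groups overlapped, and HO minus WT was -0.75 ± 0.63 on the log2 scale. Without HO replicate 2, whose labels disagree on the number of alleles, HO minus WT was -0.08 for Nr4a1 and -0.41 for Atf3.

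Ier2, a short-lived nuclear protein, had signals of 6329, 6202 and 6773 on HO arrays, of 4372, 9262 and 7375 on HE arrays, and of 5551, 6019 and 11581 on WT arrays. The HO arrays were close to each other (log2 SD 0.07) and lay above WT replicates 1 and 2 but far below WT replicate 3. Dusp1, the phosphatase that switches off MAP kinases, had signals of 27561, 15500 and 22814 on HO arrays, of 18022, 29279 and 27480 on HE arrays, and of 20709, 20275 and 27542 on WT arrays. Dusp1 differed by 1.89-fold at most, and it was the member with a positive HE minus WT difference, of 0.11 ± 0.24 (log2, SE).

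Most of the members spread widely within groups. The median within-group SD over all tested probe sets was 0.20 on the log2 scale. Nr4a1 had a within-group SD of 1.04, above 99.89% of tested probe sets, Fos had 1.01, above 99.87%, and Egr1 had 0.94, above 99.79%. Fosb and Atf3 followed with 0.87 and 0.75, and Ier2, Junb and Dusp1 with 0.47, 0.44 and 0.36. Jun had 0.24 and Klf4 0.19. At their other probe sets Jun had 0.15 and Klf4 0.35, so that the spread of Klf4 was near the median at one probe set and above 90.09% of probe sets at the other. These spreads are the same values on which the genes were picked.

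Within WT, replicate 3 stood 1.84 above the mean of replicates 1 and 2 for Fos, a 3.58-fold distance and more than for 99.98% of tested probe sets, on the log2 scale. The distance was 1.87 for Fosb and 1.41 for Egr1. It was between 0.99 and 1.06 for Junb, Ier2, Nr4a1 and Atf3, against a median of 0.02 over all tested probe sets. Dusp1 and Jun stood 0.43 and 0.36 higher there. The Klf4 probe sets differed in sign, 0.09 lower at the leading one and 0.34 higher at the other. These distances lie in the values on which the genes were picked, so nothing is read from their rank.

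HO lungs were compared with WT lungs to ask what 2 alleles of the human CFTR transgene did to the lung's mRNA. All 10 genes were lower in HO than in WT, and their median difference was -0.33 on the log2 scale, against a median of -0.01 over all tested probe sets, of which 51.2% were lower. By limma with Benjamini-Hochberg adjustment over all 13576 probe sets, 0 of the 12 member probe sets and 0% of all passed an adjusted p of 0.05, and the members' adjusted p was 0.992 or 0.993. At an unadjusted p of 0.05 1 of the 12 passed, Klf4 at 0.0357, against 4.49% of all tested probe sets. With the replicate number as a block, 2 of the 12 passed, Klf4 at 0.0394 and Atf3 at 0.046, against 5.95% of all. HO arrays lay wholly below WT arrays for 2 of the 12, Fosb and the leading Klf4 probe set, against 4.9% of all. Since the members were picked on these arrays, nothing is read from those counts. Without WT replicate 3, 6 of the 10 genes were lower in HO and the median difference was -0.03. Fos, Egr1, Ier2 and Dusp1 were then 0.53, 0.20, 0.15 and 0.06 higher in HO on the log2 scale, and Klf4 was 0.41 lower. Leaving out HO replicate 2 instead gave -0.22 for Klf4 in HO minus WT.

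With 1 allele, 9 of the 10 genes were lower in HE than in WT, all but Dusp1, and the log2 differences had a median of -0.19 against -0.01 over all probe sets, of which 52.2% were lower. By limma, 0 of the 12 member probe sets and 0% of all passed the adjusted threshold. At an unadjusted p of 0.05 0 of the 12 passed, against 3.11% of all, and HE arrays lay wholly below WT arrays for 1 of the 12, the leading Klf4 probe set, against 4.45% of all. The direction rested on single arrays: without WT replicate 3, or without HE replicate 1, 4 of the 10 genes were lower, and the median became 0.06 and 0.07.

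For the mean of HO and HE minus WT, 9 of the 10 genes were lower, all but Dusp1 at 0.01. The median was -0.33, against -0.009 over all tested probe sets, of which 52.4% were lower. Fosb at -0.68 and Atf3 at -0.65 were lowest, and Klf4 stood at -0.27 ± 0.14 (log2, SE). By limma 0 of the 12 member probe sets and 0% of all passed the adjusted threshold, and 0 of the 12 passed an unadjusted p of 0.05 against 4.19% of all. All 6 transgenic arrays lay below all 3 WT arrays for 1 of the 12, the leading Klf4 probe set, against 1.23% of all. With members picked on these arrays, nothing is read from such counts in this or the other comparisons. Without WT replicate 3 the median was -0.02 and 5 of the 10 genes were lower, with Klf4 at -0.30 and Atf3 at -0.30.

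HO and HE lungs, which differ by 1 allele, were compared directly: 8 of the 10 genes were lower in HO, all but Fos at 0.42 and Egr1 at 0.39. The median was -0.12 (log2), against 0.005 over all tested probe sets, of which 48.6% were lower. Fosb was -0.93 ± 0.53 and Nr4a1 -0.63 ± 0.63 in HO minus HE (SE). By limma 0 of the 12 member probe sets and 0% of all passed the adjusted threshold, 0 of the 12 passed an unadjusted p of 0.05 against 2.56% of all, and 0 of the 12 had every HO array below every HE array against 3.19% of all. Without HO replicate 2, 4 of the 10 were lower and the median was 0.04. With that array counted as HE, as its description reads, 2 of the 10 were lower and the median was 0.18.

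**Figure D3:**
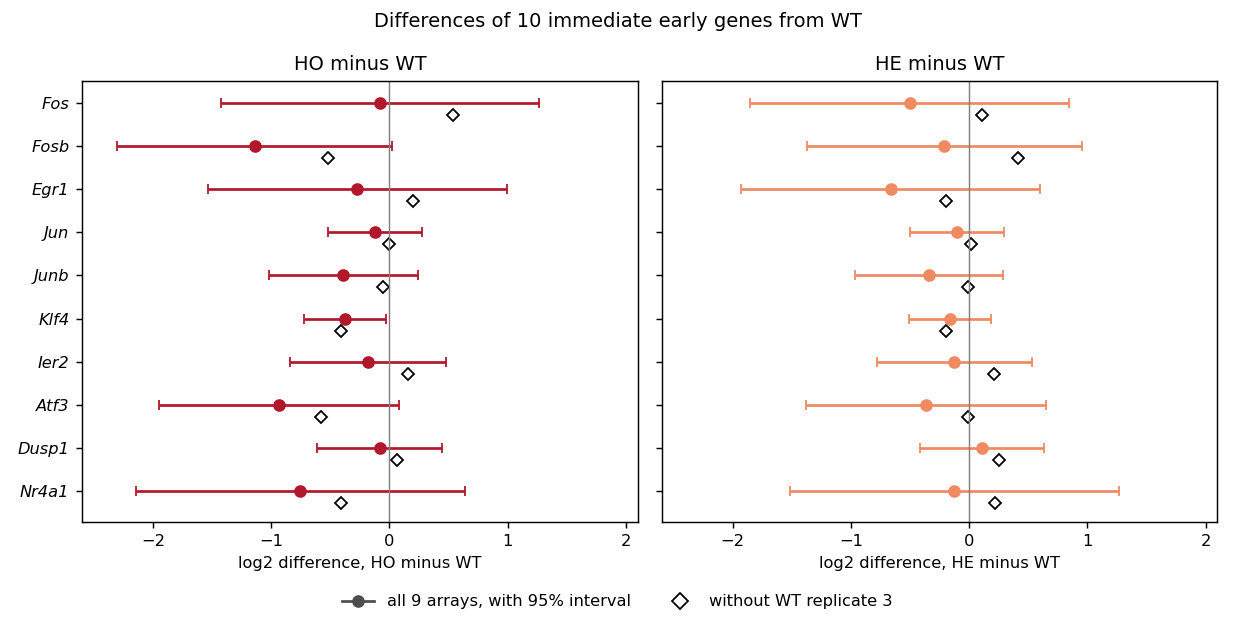
Log2 difference (horizontal axis) of each immediate early gene for HO minus WT and HE minus WT, with filled circles and 95% intervals from all 9 arrays and open diamonds without WT replicate 3. Of the intervals, the HO interval of Klf4 (-0.73 to -0.03) is the one that leaves out 0, and without WT replicate 3 the HO differences of Fos, Egr1, Ier2 and Dusp1 lie above 0.

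**Figure D4:**
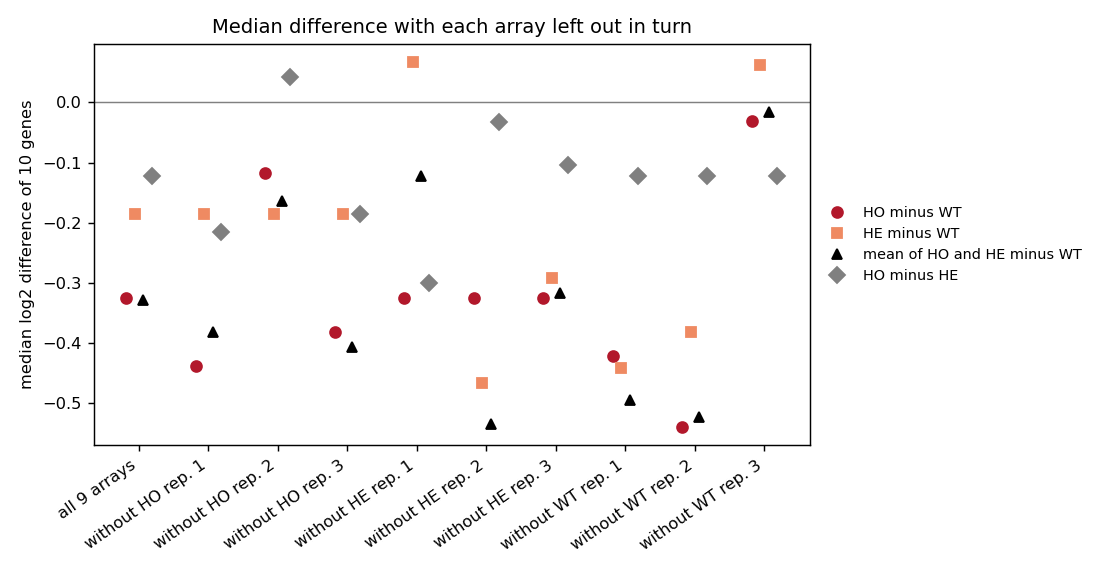
Median log2 difference of the 10 immediate early genes (vertical axis) in the 4 comparisons with all 9 arrays and with each array left out in turn. The HO minus WT median moves between -0.54 and -0.03, and the HE minus WT median is above 0 without HE replicate 1 and without WT replicate 3.

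The samples were numbered 1 to 3 in each group. In a fit with group and number, the members' log2 signal on number 3 minus the mean of numbers 1 and 2 had a median of 0.44, against 0.01 over all probe sets. Nr4a1 stood at 1.07 ± 0.49, Fos at 0.85 ± 0.51 and Atf3 at 0.79 ± 0.35 (SE). The leading Klf4 probe set was nearest 0 at 0.05, while the other stood at 0.33. Without WT replicate 3 the median was 0.18. By limma with all 9 arrays, 0 of 13576 probe sets passed an adjusted p of 0.05 for this difference, and the members' lowest was 0.512.

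Co-variation among the members was described with the 9 arrays as points, which share the group, the scaling of each array and its RNA quality. Of the 45 pairs of genes, 43 had a Pearson r above 0, with a median of 0.70 (Spearman 0.65) against 0.00 over all pairs of tested genes. Fos and Egr1 were the closest pair at 0.96, followed by Atf3 with Nr4a1 and Dusp1 with Nr4a1, each at 0.92. With group means removed the median was 0.76. Without WT replicate 3 and HE replicate 1, the 2 arrays farthest from the middle of the members' mean, it was 0.57 over 7 arrays, with 42 pairs above 0. HO replicate 2, with a members' mean of -0.69 against -0.75 on HE replicate 1, stayed among the 7. Of all pairs of tested genes, 2.42% reached the members' median over 9 arrays, and 10.3% reached that over 7. Against the mean of the other members, r ran from 0.78 for Fosb to 0.92 for Junb, while Klf4 had 0.28 at its leading probe set, which took part in the 8 lowest pairs, and 0.54 at its other one. The correlation is what the genes were chosen for and no test was made of it.

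The 10 genes outside the set whose log2 signal followed the members' mean most closely over the 9 arrays, of 8174 compared, had Pearson r from 0.88 to 0.94. Ufsp2, a protease of the ubiquitin-like protein UFM1, had the highest r at 0.94 but moved little, with an SD of 0.14. Btg2, an antiproliferative immediate early gene, had r of 0.93 and an SD of 0.42. Its signal was 11506, 7908 and 12225 on HO arrays, 7523, 14221 and 10772 on HE arrays, and 8488, 8634 and 17896 on WT arrays, the same high and low arrays as in the members. Zfp36, which binds AU-rich mRNAs and speeds their decay, had r of 0.92, and Ccn1, a secreted matrix protein, had r of 0.90 with a larger slope, 1.31 log2 units per unit of the members' mean. Thbs1, thrombospondin 1, had r of 0.88 and a slope of 1.05. Gnaq, a G protein alpha subunit, had r of 0.92. The other 4 were Washc2, Alg1, Emd and Madd, with r of 0.92, 0.91, 0.91 and 0.88 and SDs of 0.10, 0.16, 0.07 and 0.29. The 5 most opposed were the creatine transporter Slc6a8 at -0.92, the proteasome subunit Psmb1 at -0.92, the glutathione transferase Gstm4 at -0.90, the translation factor subunit Eif3k at -0.90 and Slc12a9 at -0.90. The members were selected on the same arrays, so these values are descriptions.

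Genes of the same pathway that are not members followed them unevenly. Of 12 other immediate early transcription factors tested, 3 had r above 0.5 with the members' mean, Nr4a2 at 0.82, Egr2 at 0.78 and Klf2 at 0.67, and the median was 0.06. Without WT replicate 3 and HE replicate 1, r was 0.82 for Nr4a2, 0.30 for Egr2 and 0.67 for Klf2. Nr4a2, a nuclear receptor like Nr4a1, had signals of 812, 232 and 701 on HO arrays, 557, 764 and 1163 on HE arrays, and 538, 715 and 1697 on WT arrays. Among 22 effectors and feedback inhibitors 9 had r above 0.5 and the median was 0.41. Ptgs2, the inducible prostaglandin synthase, had 0.85 and Ccn2, a matrix protein, 0.81. Without WT replicate 3 and HE replicate 1 these were 0.96 and 0.82. Of the same 9, Dusp6 then fell from 0.51 to -0.07 and Pim1 from 0.605 to 0.317. For 15 upstream kinases and transcription factors the median was 0.05, with 2 above 0.5. For 9 AP-1 and EGR1 target genes it was -0.01, with 0 above 0.5. Over the 8174 genes outside the members the median r was -0.02. The share of them above 0.5 was not computed, so nothing is read from these counts.

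**Figure D5:**
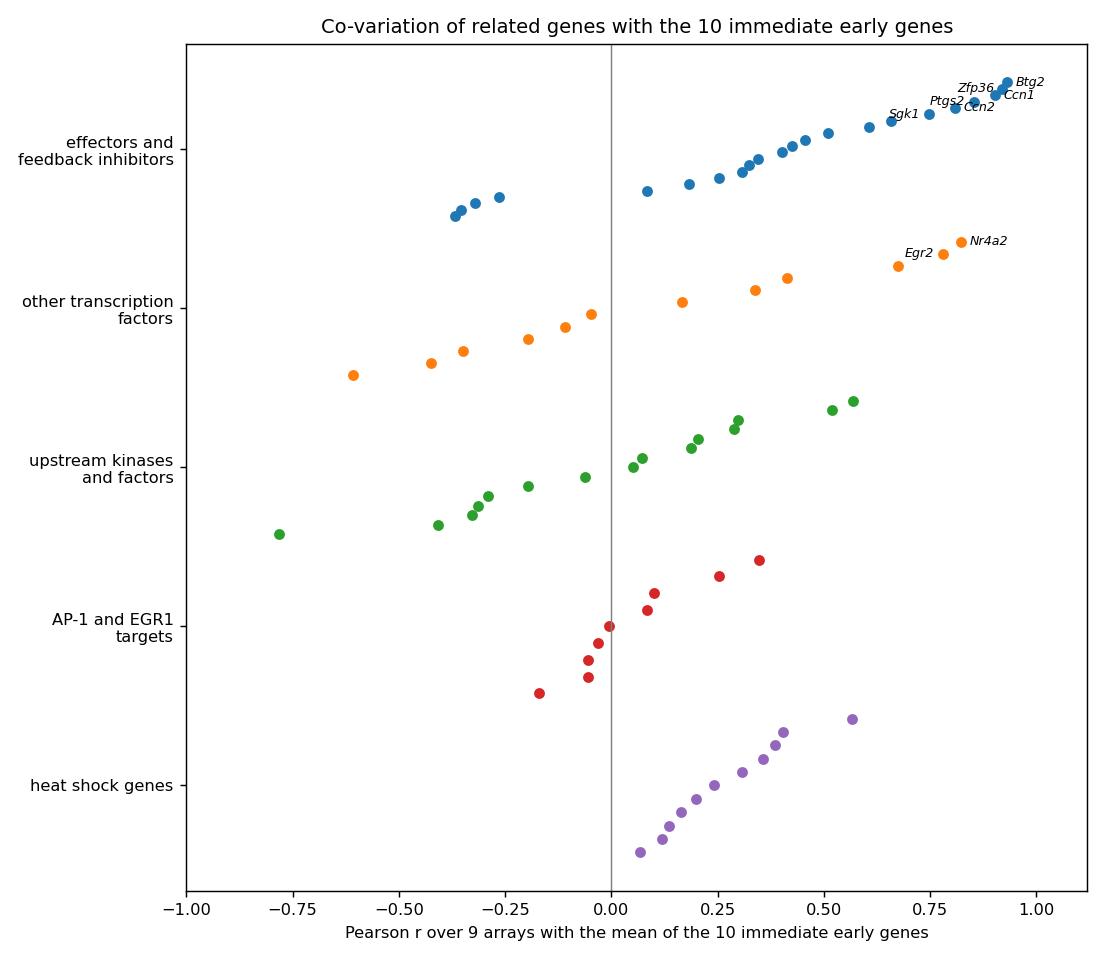
Pearson r over the 9 arrays (horizontal axis) of each tested gene of the pathway lists with the mean of the 10 immediate early genes, one row of points per list and names at r above 0.7. Effectors reach 0.93 (Btg2) and their median is 0.41, and the AP-1 and EGR1 target genes lie around 0.

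Between groups, the mean of HO and HE minus WT was lower for 9 of the 12 other transcription factors, with a median log2 difference of -0.08, where 52.4% of all tested probe sets were lower. Fosl2, a Fos family gene, stood at -0.64, Egr2 at -0.53, Nr4a2 at -0.45 and Egr3 at -0.33, and 0 of the 12 passed an unadjusted p of 0.05. Of the 22 effectors, 13 were lower, 2 of them at an unadjusted p of 0.05 by limma, which 4.19% of all tested probe sets passed: Plk2, a polo-like kinase, and Dusp2, a MAP kinase phosphatase. Plk2 had signals of 3802, 4985 and 4220 on HO arrays, 3170, 3848 and 4564 on HE arrays, and 5464, 5746 and 5865 on WT arrays, so that every transgenic array lay below every WT array, as for 1.23% of all tested probe sets. Its HO minus WT difference was -0.40 ± 0.16, HE minus WT -0.58 ± 0.16 and the mean of both minus WT -0.49 ± 0.14 (log2, SE), with the lowest adjusted p of 0.992 by limma. Its WT arrays were close to each other, and its r with the members' mean was 0.32. Dusp2 had signals of 898, 834 and 869 on HO arrays, 905, 1175 and 1226 on HE arrays, and 1271, 1185 and 1295 on WT arrays, with HO minus WT at -0.53 ± 0.14. HO arrays of Dusp2 lay below all WT arrays, and HE arrays overlapped them. Of the other effectors with large differences, Ccn1 stood at -0.40 and Trib1, a pseudokinase, at 0.22.

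Of the 15 upstream genes, 8 were higher in the mean of HO and HE and 7 lower, with a median of 0.02. Mef2d, an activity-dependent transcription factor, stood at 0.31, Elk4, a partner of SRF, at 0.24, the kinase Mapk9 at 0.18 and the kinase Braf at -0.18. Of the 9 target genes 6 were lower, with a median of -0.03. F3, tissue factor, stood at -0.37, Plaur, the urokinase receptor, at 0.23, Timp1, a protease inhibitor, at -0.17 and Nab1, a repressor of EGR1, at -0.11. In that comparison Mef2d had an unadjusted p of 0.05 by limma after rounding, and no other gene of either list was below it.

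Some other features of the arrays moved with the members' mean and others little, and their part in it was not tested. The summed signal of 7 of 8 listed alveolar type II cell markers ran from 220760 to 248360 on HO arrays, from 212720 to 236270 on HE arrays and from 198910 to 247880 on WT arrays, with WT replicate 3 the lowest of all, and had r of -0.69 with the members' mean. The summed signal of all 5 listed club cell markers ran from 198600 to 270490 on HO arrays, from 202800 to 241510 on HE arrays and from 185880 to 253150 on WT arrays, again lowest on WT replicate 3, with r of -0.57. No measured marker of these epithelial lists, which define lung, was at the floor on any of the 9 arrays. The ratio of 3′ to 5′ Actb control probe sets ran from 1.07 on HE replicate 2 to 1.39 on HO replicate 2 and had r of -0.56. The array median signal ran from 697 to 742, highest on WT replicate 3, with r of 0.63. The same ratio for Gapdh had r of -0.50, and the percentage of values at the floor had r of -0.10. Of the other marker lists, B cells had r of -0.41, fibroblasts -0.40, T cells -0.23 and cardiac muscle -0.22. Smooth muscle had r of 0.38, neutrophils 0.27, alveolar macrophages 0.23, erythroid cells 0.16 and endothelial cells -0.08, and of the neutrophil list Camp reached the floor on at least 1 array.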

How the data were processed

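The authors deposited 1 linear intensity per probe set and array. From the values, each array had been scaled to a trimmed mean of 1500, leaving out the lowest and highest 2%. For the summary of probes, no software is named in these sources. Detection calls were not used. Values under the 5th percentile of all intensities (25.55) were set to it before taking log2. Tests left out 64 control probe sets and those whose mean log2 fell below the 40th percentile (8.90). All 9 arrays were fitted at once with limma 3.58.1 in R 4.3.3 (6 residual degrees of freedom), with Benjamini-Hochberg adjustment over 13576 probe sets and a threshold of 0.05. The script was tested on simulated data. Precision is set by having 3 arrays a group.

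Of the probe sets, 20380 carried 1 symbol in the platform annotation, 691 several and 1555 none. The members, gene lists, tests and alternatives were chosen with earlier results of these data known. Named were all 10 members, the 4 genes of largest absolute difference in the mean of HO and HE minus WT of each pathway list, any gene of such a list past an unadjusted p of 0.05 where at most 4 passed, and the 10 genes most and 5 least like the members' mean. Other list genes named for their r were picked after their values were seen. Promoters came from RefSeq (GRCm38.p6) and were searched for 7 motifs with Python 3.11.15. Same-numbered HO and WT arrays deviated together over all probe sets (r of 0.19, 0.14 and 0.28), so the number was treated as pairing these 2 groups. For HE and WT r was 0.30, 0.05 and 0.04, and for HO and HE 0.16, 0.15 and 0.03, all above 0 but near it for some numbers. Over the 10 members alone, r between HO and WT was -0.36, -0.13 and 0.004, so same-numbered arrays did not deviate together there.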

Additional observations from a re-analysis of the deposited data

How the results depend on the processing

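With each array left out in turn, the number of genes lower ran from 6 to 10 for HO minus WT, 4 to 10 for HE minus WT, 5 to 10 for the mean of HO and HE minus WT and 4 to 10 for HO minus HE. The medians ran from -0.54 to -0.03, from -0.47 to 0.07, from -0.54 to -0.02 and from -0.30 to 0.04 in that order. Under 12 other settings, or 11 for the mean of both, the HO minus WT median stayed between -0.37 and -0.12, that of HE minus WT between -0.42 and -0.14, that of the mean of both minus WT between -0.37 and -0.28, and that of HO minus HE between -0.14 and 0.18. The last value, with 2 genes lower, came from counting HO replicate 2 as HE. The 60th percentile filter kept 8 of the 10 genes, leaving out Fosb and Atf3. Probe sets past the adjusted threshold numbered 0 in all 4 comparisons, 0 to 1 with an array left out, and 2 in HE minus WT and 2 in HO minus HE with no filter. Without WT replicate 1 the 1 probe set was Slurp1, and with no filter they were Fezf2 and Syt8, named after their values were seen. Counts at an unadjusted p of 0.05 were 610, 422, 569 and 348, and ran over all settings from 369 to 1225, 260 to 992, 352 to 1191 and 216 to 783. For single members the sign changed in 8 of 208, 12 of 208, 14 of 198 and 17 of 208 values, and the lowest adjusted p by limma was 0.672. With the replicate block, fitted over all 9 arrays, 0 probe sets passed the adjusted threshold in each comparison, so it changed no adjusted call. With it, 808 HO minus WT probe sets passed an unadjusted p of 0.05 by limma. The members' medians (-0.33, -0.19, -0.33 and -0.12) could not change, since each number holds 1 array of each group. Atf3 in HO minus WT passed an unadjusted p of 0.05 with the block (0.046) and not without it (0.0678). Fosb, close to the filter, would go untested if the filter were set without WT replicate 3.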

Other observations

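Heat shock genes, another group of rapidly induced genes, were described with the same fit. The list was made for cytosolic heat shock genes but also holds Hspd1 and Hspe1, whose proteins are mitochondrial. Of 11 tested, 9 were higher in the mean of HO and HE than in WT, the median being 0.31 on the log2 scale, where 47.6% of all tested probe sets were higher. Of the 11, 1 passed an unadjusted p of 0.05 by limma, as did 4.19% of all: Dnaja1, a co-chaperone of HSP70, at 0.42 ± 0.17 (SE, adjusted p at least 0.992). Dnaja1 had signals of 12504, 12071 and 10633 on HO arrays, 9930, 9919 and 11960 on HE arrays, and 6594, 7608 and 11472 on WT arrays, so WT replicate 3 lay inside the range of the transgenic arrays. Hspa1a, an inducible HSP70, stood at 0.63, Dnajb1 at 0.37 and Hsph1 at 0.35. The heat shock genes had a median r of 0.24 with the members' mean over the 9 arrays, against -0.02 over the 8174 genes outside the members. Of the 11, 1 was above 0.5, a share not computed over all genes. HO replicate 1 had the highest summed heat shock signal, 185340, while its mean of the immediate early genes was 0.10.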
